A study of Mus musculus with 185 samples.

Results

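The genes described here are 10 genes of lysosomal antigen processing, of 45661 genes listed, in single Langerhans cells (LCs) of mouse epidermis: the cathepsins Ctss, Ctsb, Ctsl, Ctsz, Ctsd, Ctsh and Ctsc, the protease legumain (Lgmn), the lysosomal thiol reductase GILT (Ifi30) and the protease inhibitor cystatin C (Cst3). They were chosen by name. The cells came from bone marrow chimeras (BMC). In these, lethally irradiated B6 Cd207DTR hosts of the CD45.1 congenic type had received wild-type CD45.2 bone marrow and then 5 ng diphtheria toxin (DT) per g body weight, and epidermal LCs were index sorted 2 months after DT. Host cells are embryo-derived LCs (eLCs, labelled E) and donor cells are monocyte-derived LCs (moLCs, labelled M). Both came from irradiated hosts that were given the toxin. Only the host cells were themselves irradiated, since donor marrow was given afterwards, so irradiation cannot be told apart from origin. Only eLCs carried the DT receptor, which sits in the Cd207 locus. The eLCs are therefore host LCs that were still in the epidermis after a low dose of a toxin directed at them. No animal is named for any cell and no age is given, so an origin counts as a single sample here, differences are given without a test, and cells are not replicates.

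Exogenous proteins taken up by LCs are cut by proteases in acidified endosomes and lysosomes, and the peptides are loaded there onto MHC class II molecules. The same proteases remove the invariant chain (Cd74) from newly made class II dimers, and in most antigen-presenting cells cathepsin S makes the last cut. Cysteine cathepsins are synthesized as inactive proenzymes, are sorted to lysosomes, and are held in check by cystatins.

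The measurements are read counts per gene and cell, from full-length cDNA sequenced without molecular identifiers. After removal of 3 moLCs in which mitochondrial genes took over 5% of reads, 182 cells remained, namely moLCs (67 on plate 1, 36 on plate 2) and 79 eLCs (29 on plate 1, 50 on plate 2). They held 432614 to 4525429 reads each, and the median was 2948819 for moLCs and 2779080 for eLCs. Levels are given as counts per 1000000 reads (CPM), either in a single cell or from reads summed over the cells of an origin. The 8 LC markers listed were all read, and their summed CPM per cell ran from 11088 to 223268 in moLCs and from 72542 to 185832 in eLCs. Of these, Cd207 itself was at 26238 CPM in moLCs against 2159 in eLCs. Markers of other skin cells were low. The 8 keratinocyte markers summed to 24.5 CPM in moLCs against 4.83 in eLCs, with Krt1, Krt15 and Dsp at 0 reads, the 6 T cell markers to 15.7 and 17.5 CPM, almost all of it Cd2, and the 5 melanocyte markers to 0.633 and 0.0689 CPM. The 6 dermal DC1 markers summed to 168 and 198 CPM. The 8 monocyte or macrophage markers summed to 613 and 555 CPM, with Fcgr1 at 0 reads. A pair of moLCs stood apart by these sums. The first, on plate 1, had the lowest LC marker sum of all cells, no Cd207 read, and Ccr7 at 9601 CPM. The second, on plate 2, had a monocyte or macrophage marker sum of 10660 CPM, against 4374 CPM in the next moLC. Without them the monocyte or macrophage sum was 529 CPM in moLCs, and the log2 ratio of each of the 10 genes is given without them too.

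All 10 genes had reads in both origins. Summed over the 10 genes, they took 1.38% of all reads in moLCs (1.29% on plate 1, 1.54% on plate 2) and 1.51% in eLCs (1.37% and 1.60%). In single moLCs the summed level ran from 4417 CPM over a median of 12226 to 73192 CPM, and in single eLCs from 4188 over 14628 to 40176 CPM. These ranges overlapped between 4417 and 40176 CPM. The highest value was that of 1 moLC on plate 1, in which Cst3 alone reached 59650 CPM. A cell had a read of between 5 and 10 of the 10 genes as a moLC and between 6 and 10 as an eLC, with a median of 8 in both, also when 2052512 reads were drawn from each cell, leaving out the 7 moLCs and 12 eLCs that had fewer.

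Levels of different genes were compared per kb of exon. In both origins the order began with Cst3 at 6412 CPM per kb in moLCs and 7347 in eLCs, followed by Ctsz at 1389 and 1367, Ctss at 965 and 1125, Ifi30 at 472 and 511, Ctsb at 177 and 151, Ctsh at 100.3 and 102.5 and Lgmn at 45.6 and 45.6. Thereafter the order depended on origin. Ctsd (31.1) and Ctsc (30.7) were near each other in moLCs, whereas Ctsc (41.4) stood above Ctsd (13.9) in eLCs. Ctsl was lowest, at 2.64 and 5.16 CPM per kb. Per kb of the longest coding transcript, Ctsc (55.3) stood above Lgmn (53.3) and Ctsd (34.4) in moLCs, so the order of these genes also rests on the length used. Over the 4 groups of origin and plate, the exon-based values of Lgmn (30.4 to 70.9), Ctsc (27.1 to 45.1) and Ctsd (11.6 to 42.9) overlapped, whereas those of Ctsz (1288 to 1494), Ctss (930 to 1128), Ifi30 (356 to 616), Ctsb (137 to 184) and Ctsh (96.6 to 111) did not overlap each other. Among all genes with reads, Cst3 ranked 8 by summed CPM, Ctsz 47, Ctss 67 and Ctsb 91, and Ctsl ranked 4422 of 17821.

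Sequence before the RefSeq transcription start (build GRCm38.p6) is printed for 3 genes in which a motif searched was found, with the motif in capitals. For Ctss, the 120 bases at chr3:95526666-95526785 on the plus strand are given, which end where the gene begins (chr3:95526786-95556403). Across cells Ctss had a mean Spearman's rho of 0.31 with Cst3, but 0.00 in eLCs of plate 1, as described below. For Ctsd, whose level differed more than 2-fold between origins in all cells, and for Ifi30, which holds the same motif, 28 bases around it are given, at chr7:142387909-142387936 and chr8:70766843-70766870, both on the minus strand. Gene positions are from GENCODE M21 (GRCm38). The window of Ctsd lies inside the gene as annotated there (chr7:142375911-142388038) and in an exon of it, since the annotated start is farther upstream than that of RefSeq, whereas the window of Ifi30 lies outside its gene (chr8:70762774-70766663).
Ctss: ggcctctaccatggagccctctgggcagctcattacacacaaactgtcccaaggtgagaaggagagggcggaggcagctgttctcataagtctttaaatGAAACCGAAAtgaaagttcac
Ctsd: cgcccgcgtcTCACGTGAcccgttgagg
Ifi30: tccaaaaactTCACGTGAccagacatgc

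The capitals in Ctsd and Ifi30 are TCACGTGA, the letters of an element that TFEB and related factors bind at lysosomal genes, starting 99 and 197 bases before the RefSeq start. Those in Ctss match GAAA followed by any 2 bases and GAAA again, the repeat bound by interferon regulatory factors, starting 21 bases before it. In all, 4 motifs were searched on both strands in the 250 bases upstream of 9 promoters of 8 of the 10 genes (Lgmn has 2 starts in the table). CACGTG, which TCACGTGA contains, was in 4 of the 9 promoters (Ctsd, Ifi30, Ctsl and 1 of Lgmn), and in 6.02% of all 32851 promoters of that length. TCACGTGA was in 2 of the 9 (Ctsd and Ifi30) and in 0.785% of all. The GAAA repeat was in 1 of the 9 (2.98% of all), and GAGGAAGT, a purine-rich motif of the PU.1 kind, in 1 of the 9, Ctsc (2.44% of all). None of the 4 was in the 250 bases of Cst3. These matches are descriptions of letters, and binding was not measured.

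Ctss encodes cathepsin S, the cysteine protease that trims the invariant chain in dendritic cells. All 182 cells had a read of it. In moLCs it ran from 159 CPM over a median of 1142 to 5166 CPM, and in eLCs from 27.5 over 1478 to 3326 CPM. The cells of both origins overlapped, with 33 moLCs (32.04%) above the median of eLCs and 2 moLCs above the highest eLC, of which the higher was the moLC with the highest monocyte or macrophage sum. Summed over cells, Ctss was at 1310 CPM in moLCs (95% interval 1306 to 1314) and 1528 CPM in eLCs (1522 to 1533). Pooled over plates, the log2 ratio of moLCs to eLCs was -0.22, and it was -0.28 on plate 1 and -0.12 on plate 2. The intervals of sums are exact Poisson intervals that reflect counting error, but neither the spread of cells nor that of mice, and reads of 1 molecule are not independent.

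Ctsl encodes cathepsin L, the related protease best known for processing the invariant chain in thymic epithelium. It was read in 14 moLCs (13.6%, exact binomial interval 7.63 to 21.8%) and 12 of 79 eLCs (15.2%, 8.10 to 25.03%). In cells with a read its median was 53.4 CPM in moLCs against 85.8 in eLCs, and the highest cells had 821 and 1272 CPM. The summed level was 17.2 CPM in moLCs against 33.5 in eLCs, a log2 ratio of -0.97 (-1.23 on plate 1 and -0.38 on plate 2). A single moLC on plate 2 held 50.6% of all moLC reads of Ctsl, and without that cell the ratio was -1.97. The difference in level thus rested on few cells, and the shares of cells with a read lay within each other's interval. Of the exon bases of Ctsl, 26.8% are shared with the annotated genes Gm47123 (opposite strand) and Gm49230 (same strand), which were not analysed here, and how reads in these bases were counted is not given in the sources used here.

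Ctsb encodes cathepsin B, an endopeptidase that also trims peptides from their carboxyl end. Only 1 cell, a moLC, lacked a read. In moLCs Ctsb ran from 0 CPM over a median of 780 to 6095 CPM, and in eLCs from 160 over 799 to 3663 CPM. Summed over cells it was at 1074 CPM in moLCs against 912 in eLCs (log2 ratio 0.23, 0.11 on plate 1 and 0.27 on plate 2), although the median cell differed in sign between plates (-0.38 and 0.35). Exons of Ctsb overlap those of Fdft1 on the opposite strand in 12.8% of their bases, and Fdft1 was read at 46.6 CPM in moLCs against 41.1 in eLCs.

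Ctsz and Ctsh encode cathepsins that act mainly as exopeptidases. Ctsz encodes cathepsin X, a carboxypeptidase, and was read in every cell. It ran from 367 CPM over a median of 1726 to 7059 CPM in moLCs and from 124 over 1904 to 6445 CPM in eLCs. Its summed level was 2002 CPM in moLCs against 1970 in eLCs, with a log2 ratio of 0.02 that was -0.15 on plate 1 and 0.21 on plate 2. Ctsh encodes cathepsin H, an aminopeptidase, and had no read in 3 moLCs. In moLCs Ctsh ran from 0 over a median of 408 to 1960 CPM, and in eLCs from 27.3 over 390 to 1278 CPM. Its log2 ratio was -0.03 (-0.13 and 0.01 within plates). For both genes the cells of the origins overlapped, and the sign of the ratio differed between plates.

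Ctsc encodes cathepsin C, or dipeptidyl peptidase I, which activates the serine proteases of granules. It was read in 65 moLCs (63.1%, interval 53.03 to 72.4%) and in 60 of 79 eLCs (75.9%, 65.02 to 84.9%), and in 65.6% and 76.1% after thinning. Per cell it ran from 0 CPM over a median of 108 to 1218 CPM in moLCs and from 0 over 120 to 1563 CPM in eLCs. Among cells with a read the medians were close, at 219 CPM in moLCs against 221 in eLCs. The summed level was 178 CPM in moLCs against 240 in eLCs, a log2 ratio of -0.43. Within plate 1 the ratio was -0.73 and on plate 2 it was -0.06, so most of the difference lay on plate 1.

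Ctsd encodes cathepsin D, the aspartic protease of lysosomes, which cystatins do not inhibit. It was read in 33 moLCs (32.04%, interval 23.2 to 41.96%) and 23 of 79 eLCs (29.1%, 19.4 to 40.4%), so the shares lay within each other's interval. In cells with a read it ran from 0.685 CPM over a median of 150 to 1907 CPM in moLCs and from 1.52 over 114 to 272 CPM in eLCs, with 8 moLCs above the highest eLC. The summed level was 73.2 CPM in moLCs against 32.7 in eLCs. The log2 ratio was 1.16, a 2.24-fold difference. It was the largest in size of the 10 genes in all cells, but Ctsl was above it in size after thinning (-1.35 against 1.28). On plate 1, Ctsl (-1.23), Lgmn (-1.08) and Ctsc (-0.73) were above Ctsd in size. The ratio of Ctsd was 0.53 on plate 1 and 1.88 on plate 2. A single moLC on plate 2 held 23.3% of the moLC reads of Ctsd, and without it the ratio was 0.80. That cell also had the second lowest LC marker sum of all cells (52591 CPM) and the lowest Cst3 of all cells (872 CPM). Without the highest cell of each origin and plate the ratio was 1.05 (0.73 and 1.32 within plates), where that of Ctsl was -1.20, and without the 2 cells that stood apart it was 1.09. Lyz2, a lysozyme of monocytes and macrophages, also had more reads in moLCs, at 75.98 CPM against 33.9 CPM, whereas the sum of the 8 markers of these cells was 532 CPM in moLCs against 665 in eLCs of plate 1 and 764 and 480 CPM on plate 2 (513 in moLCs of plate 2 without the cell that had the highest sum). Keratinocyte markers were higher in moLCs, as given above. Across cells, within origin and plate, Spearman's rho of Ctsd was 0.09 with the monocyte or macrophage sum and -0.15 with the keratinocyte sum, and the part of such cells in the ratio was not tested. A further 34.4% of the exon bases of Ctsd are shared with Gm49369 on the same strand, a gene not analysed here, and how reads in these bases were counted is not given in the sources used here.

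Lgmn encodes the asparaginyl endopeptidase legumain, which makes early cuts in antigens and activates some cathepsins. It was read in 66 moLCs (64.1%, interval 54.03 to 73.3%) and 51 of 79 eLCs (64.6%, 52.99 to 74.9994%). Per cell it ran from 0 CPM over a median of 46.2 to 1684 CPM in moLCs and from 0 over 44.4 to 1089 CPM in eLCs. Its summed level was 105.97 CPM in moLCs against 105.99 in eLCs, but this concealed opposite differences on the plates. On plate 1 it was 74.7 CPM in moLCs against 158 in eLCs (log2 ratio -1.08), and on plate 2 it was 165 and 70.6 CPM (log2 ratio 1.22). A single eLC held 35.4% of the eLC reads of plate 1. Without the highest cell of each origin and plate the ratios were -0.66 and 1.16, so that plate 1 was no longer past 2-fold. The difference on plate 2 also rested on few cells. There 3 moLCs, at 1684, 1461 and 1039 CPM, were above the highest eLC (598 CPM), and the ratio without all 3 was not computed. The median cell of plate 2 had 46.9 CPM in moLCs against 30.2 in eLCs. The monocyte or macrophage marker sum given above had the same order within plates, with 7 of the 8 markers read, and single cells between 0 and 10660 CPM in moLCs and between 0 and 3279 CPM in eLCs. Among the markers with enough cells, C1qa (log2 ratio -0.84 and 0.32 within plates) and C1qb (-1.08 and 1.15) had this order. Lyz2 (0.57 and 1.76) and Adgre1 (0.53 and 0.33) did not, being higher in moLCs on both plates. The rho of Lgmn with the marker sum across cells was 0.15, and the part of this sum in the ratio was not tested.

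Ifi30 encodes GILT, which reduces disulfide bonds so that antigens unfold for the proteases. It had a read in 93 moLCs (90.3%, interval 82.9 to 95.3%) and 75 of 79 eLCs (94.9%, 87.5 to 98.6%). It ran from 0 CPM over a median of 312 to 2411 CPM in moLCs and from 0 over 336 to 2478 CPM in eLCs. The summed levels of 463 CPM and 501 CPM gave a log2 ratio of -0.11, which was 0.33 on plate 1 and -0.24 on plate 2. Without the 2 cells that stood apart, which had 1706 and 2354 CPM, the ratio in all cells was -0.19. In eLCs Ifi30 was at 349 CPM on plate 1 and 604 CPM on plate 2.

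Cst3 encodes cystatin C, a secreted inhibitor of cysteine cathepsins that dendritic cells make in large amounts. Every cell had a read of it. In moLCs it ran from 872 CPM over a median of 6393 to 59650 CPM, and in eLCs from 1030 over 8494 to 35907 CPM. Of the moLCs, 33 (32.04%) were above the median of eLCs, and within plates 40.3% (plate 1) and 41.7% (plate 2) were. The summed level was 8118 CPM in moLCs against 9302 in eLCs, a log2 ratio of -0.20 (-0.04 on plate 1 and -0.15 on plate 2). Without the highest cell of each origin and plate the ratio on plate 1 was 0.019. On plate 1 the mean cell had 8320 CPM in moLCs against 7498 in eLCs, whereas the median cell had 6201 against 6880. Both origins had more Cst3 on plate 2 than on plate 1, by 0.34 in moLCs and 0.45 in eLCs on the log2 scale. Cst3 took 58.9% of the reads of the 10 genes in moLCs and 61.7% in eLCs, Ctsz 14.5% and 13.1%, and Ctss 9.499% and 10.1%. The log2 ratio of Cst3 to Ctss within a cell ran from -1.05 over a median of 2.58 to 5.60 in moLCs and from -0.23 over 2.59 to 6.29 in eLCs. The near medians concealed a difference on plate 1, where the median was 2.58 in moLCs against 1.93 in eLCs, whereas on plate 2 it was 2.57 against 2.71.

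**Figure D1:**
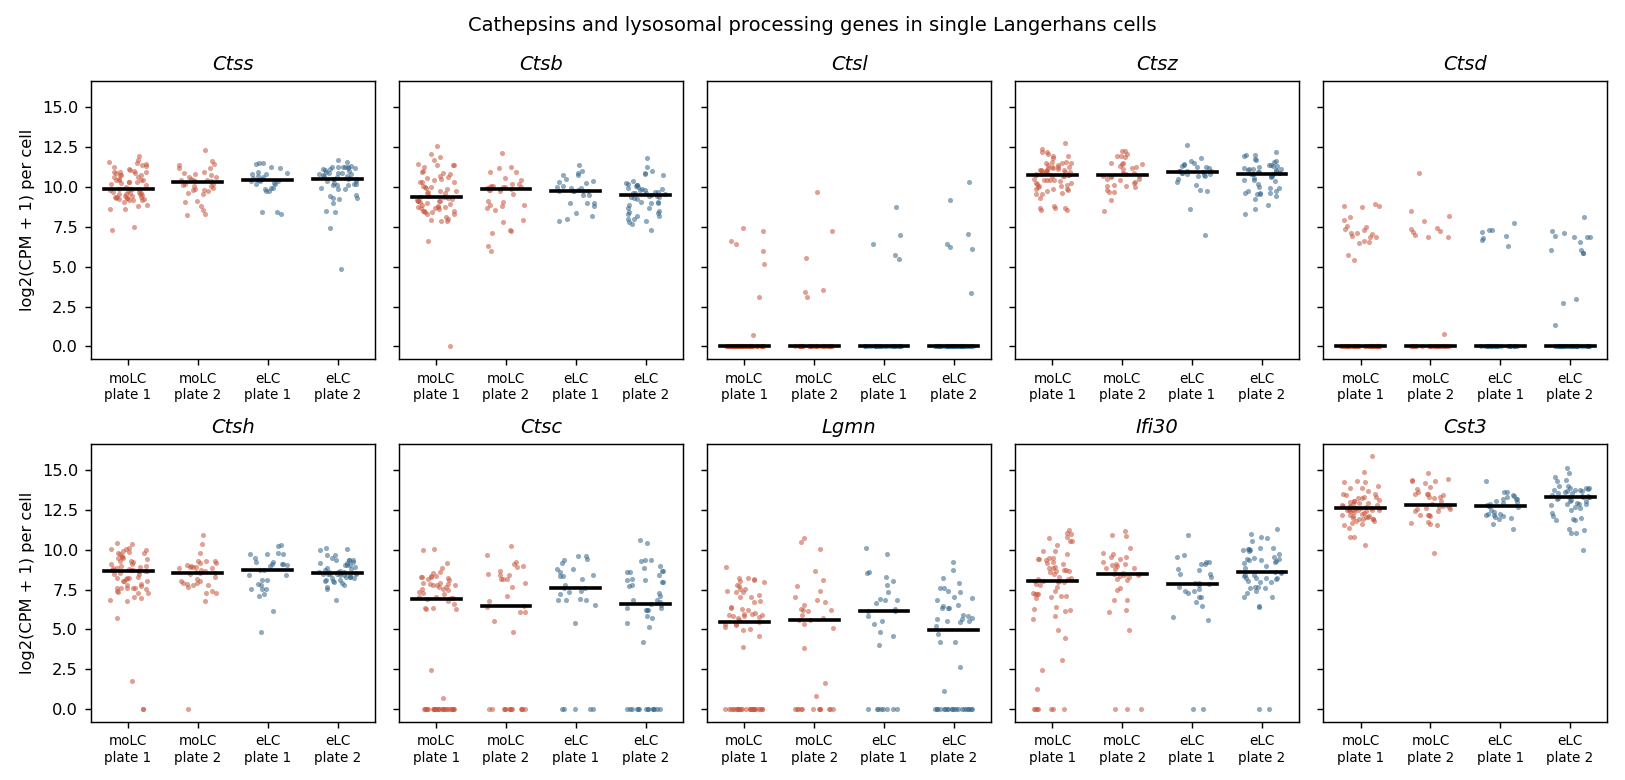
Level of each of the 10 genes in single cells, as log2(CPM + 1) on the vertical axis, by origin and plate. Each point is 1 cell (67 and 36 moLCs, 29 and 50 eLCs) and each black line is a group's median; Ctsl and Ctsd have their medians at 0, and all genes overlap between origins.

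The plot of levels by cell shows 2 kinds of genes. Ctss, Ctsz and Cst3 had a read in every cell and Ctsb, Ctsh and Ifi30 in over 90% of each origin, whereas Ctsc, Lgmn, Ctsd and Ctsl were without a read in 57, 65, 126 and 156 of the 182 cells. The shares were similar after thinning to 1 depth. The largest shift was that of Lgmn in eLCs, from 64.6% to 61.2%.

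**Figure D2:**
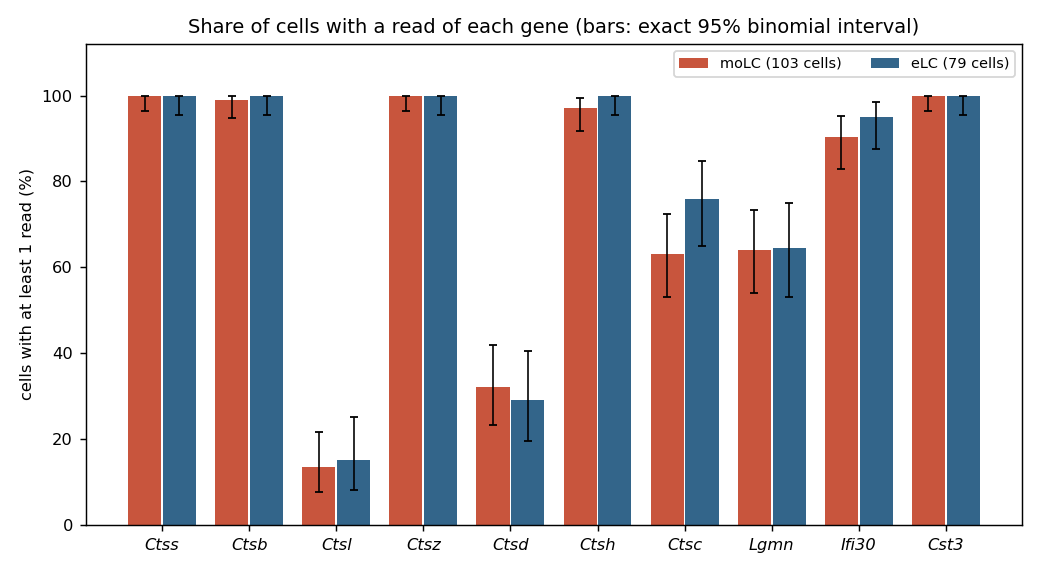
Share of moLCs and eLCs with at least 1 read of each gene, in percent, with exact 95% binomial intervals as error bars. The shares range from 13.6% for Ctsl in moLCs to 100% for Ctss, Ctsz and Cst3, and the intervals of both origins overlap for every gene.

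The ratios of the 10 genes were set beside those of all genes. A gene was called by size where at least 25% of the moLCs or of the eLCs had a read of it and its ratio met a further condition. The ratio had to have 1 sign and be at least 2-fold in the pooled cells, on plate 1 and on plate 2 alike. Of the 10 genes, 9 had enough cells with a read (Ctsl did not), and 0 of these 9 were called at 2-fold, where 2.02% of the 6522 genes with enough cells were. At 1.5-fold 0 of 9 were called, against 7.68% of all genes. With no minimum size, Ctsb and Ctsd were higher in moLCs and Ctss, Ctsc and Cst3 higher in eLCs, in all cells and both plates. Of these, Cst3 was not higher in eLCs on plate 1 without its highest cells, as given above. With no cell left out, 5 of 9 kept 1 direction, against 53.2% of all genes (1273 higher in moLCs and 2199 higher in eLCs). Without the 2 cells that stood apart it was 6 of 9, and the log2 ratio was -0.27 for Ctss, 0.24 for Ctsb, -0.95 for Ctsl, 0.012 for Ctsz, -0.041 for Ctsh, -0.45 for Ctsc, 0.0056 for Lgmn and -0.21 for Cst3. Lgmn differed at least 2-fold within both plates in opposite directions, as 1.01% of all genes did, but not without its highest cells, as given above. Between plates 0 of 9 genes differed at least 2-fold in both origins in 1 direction, against 1.36% of all genes. The median log2 ratio of the 9 genes was -0.03, and that of all 6522 genes was -0.10. The median size of the ratio, without sign, was 0.20 in the 9 genes and 0.27 in all genes.

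**Figure D3:**
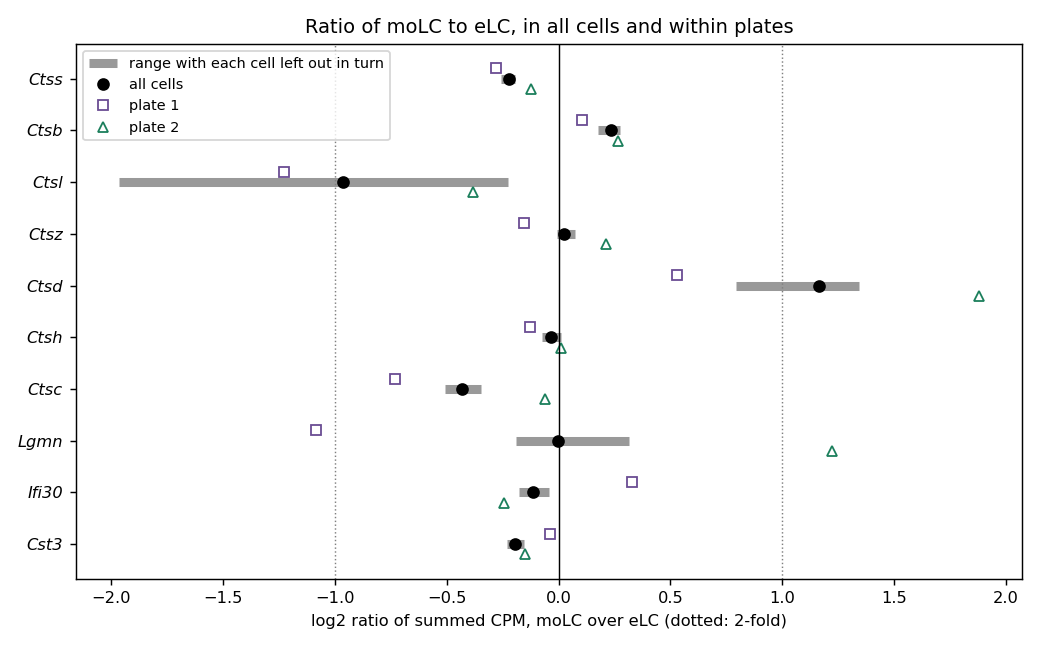
Log2 ratio of summed CPM of moLCs over eLCs for each gene (horizontal axis), in all cells (circles), plate 1 (squares) and plate 2 (triangles), with grey bars for the range when each cell was left out in turn. Lgmn lies at -1.08 on plate 1 and 1.22 on plate 2, and the bar of Ctsl reaches from -1.97 to -0.23.

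From cell to cell, most pairs of the 10 genes were weakly correlated. Spearman's rho was computed across cells within each of the 4 origin-by-plate groups and averaged. It describes cells that share an origin and a plate, not a depth, and is given without a test. Over the 45 pairs the median rho was 0.05, with a range from -0.15 to 0.31, and 35 pairs (77.8%) were above 0. Over all pairs of the 3295 genes read in 50% of cells or more the median was 0.01 and 55.4% were above 0. At least 0.2 was reached by 2 of the 45 pairs (4.44%) and by 3.24% of all those pairs. Of the 10 genes 8 were read in as many cells, and 2 of their 28 pairs (7.14%) reached it.

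Cst3 and Ctss were the pair with the highest rho, 0.31. It was 0.34 in moLCs of plate 1, 0.39 in moLCs of plate 2 and 0.50 in eLCs of plate 2, but 0.00 in the 29 eLCs of plate 1. The next pairs were Ctsh with Ifi30 (0.24), Ctss with Ifi30 (0.20), Ctsd with Lgmn (0.20) and Ctsb with Ctsc (0.20), each above 0 in all 4 groups. The lowest was Ctsc with Cst3 (-0.15), at or below 0 in all 4 groups. The mean rho of Cst3 with Ctss was 0.17 on plate 1 alone and 0.44 on plate 2 alone, and lay between 0.27 and 0.38 under the other settings tried.

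**Figure D4:**
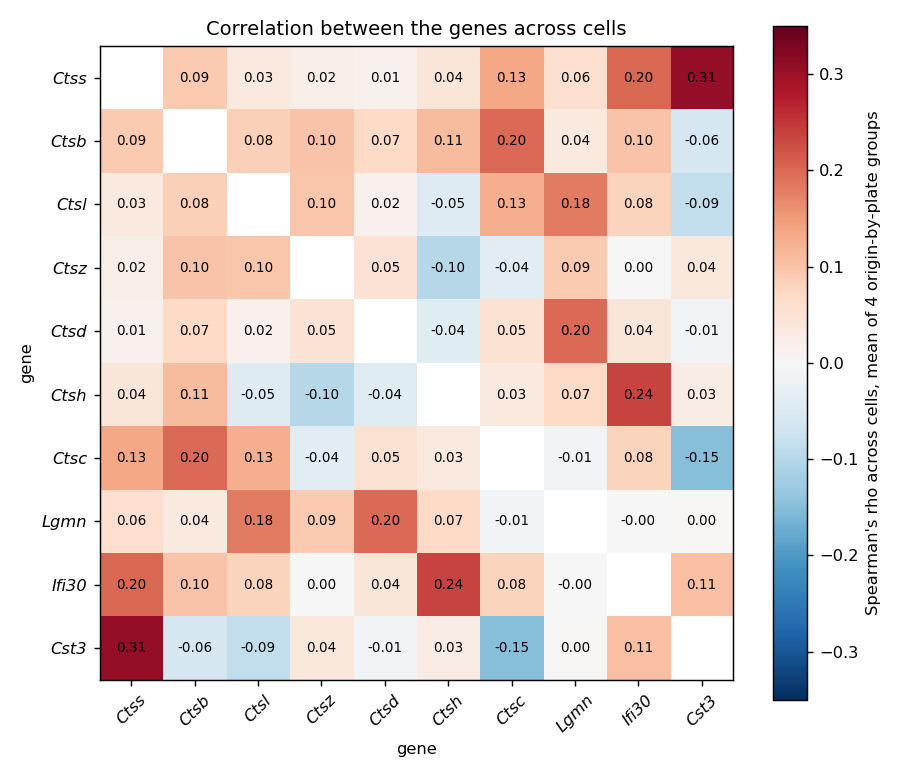
Spearman's rho between the 10 genes across cells, each the mean of 4 origin-by-plate groups, with the value in each square and color from blue (below 0) to red (above 0). The darkest red square is Ctss with Cst3 at 0.31 and the bluest is Ctsc with Cst3 at -0.15.

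A measure of library composition moved with some of these genes. The share of a cell's reads on short genes, those with at most 1500 bp of exons and other than the 10 genes, had a rho of 0.51 with Cst3, 0.32 with Ifi30 and 0.28 with Ctss, which are themselves short (exons of 1266, 981 and 1358 bp), but -0.03 with Ctsz (1441 bp). This share ran from 3.29% over a median of 5.50% to 21.9% in moLCs and from 3.82% over 6.12% to 16.5% in eLCs. Ifi30 also had a rho of 0.35 with the number of genes read in a cell. With total reads the rho of Cst3 was -0.11 and that of Ctss -0.03. The part of this share in the correlation of Cst3 with Ctss was not tested.

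**Figure D5:**
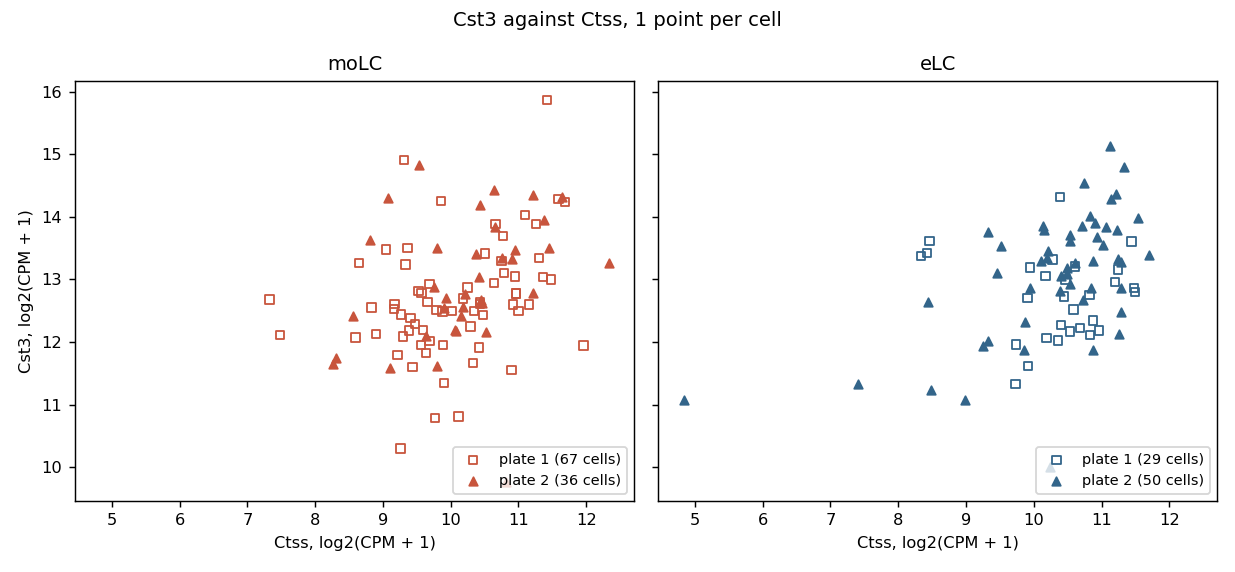
Cst3 (vertical axis) against Ctss (horizontal axis), both as log2(CPM + 1), in moLCs and eLCs, with plate 1 as open squares and plate 2 as filled triangles. Each point is 1 cell; the rho within groups is 0.34 and 0.39 in moLCs and 0.00 and 0.50 in eLCs.

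The genes most like each of the 10 across cells were taken from the genes read in at least 50% of cells. For Cst3 they were Cox6b1 (0.55), Cd52 (0.52) and Sh3bgrl3 (0.51), and for Ctss Cd52 (0.44), Nedd8 (0.37) and Actb (0.35). Ifi30 was most like Cyba (0.41), a subunit of the phagosomal NADPH oxidase, Sh3bgrl3 (0.38) and S100a4 (0.36). For Ctsb they included Atp6ap1 (0.34), an accessory subunit of the proton pump of lysosomes, and Vav1 (0.32). Ctsz was most like Mreg (0.34), H2-D1 (0.33) and F11r (0.33), and Ctsc like Eloa (0.38), Map2k3 (0.31) and Tnfrsf1a (0.30). For Lgmn, Ctsh, Ctsd and Ctsl all values were at most 0.31, and Ctsd and Ctsl were at 0 reads in most cells. Lgmn had, among others, H2-K1 (0.29) and Rnaset2a (0.24), Ctsh had Fcho2 (0.30), Cers2 (0.26) and Psap (0.24), Ctsd had Cul2 (0.31), Mki67 (0.24) and Blvrb (0.24), and Ctsl had Hmgb2 (0.29), Mdm2 (0.27) and Herc2 (0.25).

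With the class II genes, Cst3 had a rho of 0.45 with H2-Ab1, 0.31 with H2-Aa and 0.38 with Cd74, the invariant chain. Each of these was above 0 in all 4 groups. With Cd207 its rho was -0.23. Ctsz had 0.27 with H2-Aa and 0.29 with Ccr7, the chemokine receptor of LCs that leave the skin, also above 0 in all 4 groups, but -0.22 with H2-DMa, below 0 in all 4.

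Genes of the surrounding pathway were counted by list, each list read against the shares of all genes given above. Of 15 other cathepsins, 5 had any read and only Ctsa had enough cells with a read. Ctsa encodes cathepsin A, a serine carboxypeptidase, and was at 202 CPM in moLCs against 271 in eLCs (log2 ratio -0.42, -0.73 and -0.16 within plates). Ctso, Ctsf, Ctse and Ctsk were at 31.7, 9.68, 1.72 and 1.06 CPM in moLCs and 16.6, 12.505, 0.881 and 0.757 CPM in eLCs. The other 10, among them Ctsg and Ctsw, had 0 reads, which over all cells of an origin allows up to 0.00999 CPM in moLCs against 0.0138 in eLCs.

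Of 14 other protease inhibitors, 5 had enough cells, with a median log2 ratio of -0.45. Serpinb6b, a serpin, was called at 1.5-fold, at 346 CPM in moLCs against 624 in eLCs (log2 ratio -0.85, -0.83 and -0.74 within plates). Its near copy Serpinb6a was at 24.6 and 56.8 CPM, and how reads shared by both were counted is not given in the sources used here. Cstb, the intracellular cystatin B, was at 214 and 294 CPM (log2 ratio -0.45). In total 4 of the 5 were higher in eLCs in all cells and both plates, and 0 were higher in moLCs. Of all 6522 genes with enough cells, 2199 were higher in eLCs in this way and 1273 in moLCs.

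The machinery around the proteases gave few calls. Of the 16 subunits of the vacuolar ATPase listed, which acidifies lysosomes, 15 had enough cells, 0 were called at 1.5-fold, and 3 kept a higher level in moLCs and 6 in eLCs on both plates. Of 9 lysosomal membrane genes 8 had enough cells, and 1 was called at 1.5-fold, Tmem106b, at 9.26 CPM in moLCs against 24.4 in eLCs (log2 ratio -1.40). Lamp1 was at 260 and 238 CPM. Of 35 other lysosomal hydrolases 20 had enough cells. Of 7 genes for sorting to lysosomes 3 had enough cells, of 5 lysosomal transcription factors 3, and of 6 oxidase subunits 4, and 0 of these were called at 1.5-fold. Of the 10 partners in class II presentation, all had enough cells and 0 were called, with a median log2 ratio of -0.06. In all cells and both plates, 1 of the 10 was higher in moLCs and 4 were higher in eLCs. The 1 was H2-Oa, at 57.3 CPM in moLCs against 19.6 in eLCs (log2 ratio 1.55, 3.77 and 0.37 within plates). Among the 4, Sppl2a, the protease that clears the last stub of the invariant chain, was at 100.7 CPM in moLCs against 145 in eLCs (log2 ratio -0.52, -0.36 and -0.62 within plates). Among markers of cell types, Cd207 was called at 2-fold, higher in moLCs, and Cadm1 at 1.5-fold, higher in eLCs, of 8 LC and 2 dermal DC1 markers with enough cells. Of 4 monocyte or macrophage markers with enough cells 0 were called at 1.5-fold, and no keratinocyte, T cell or melanocyte marker had enough cells.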

How the data were processed

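The data are single-cell cDNA libraries of LCs of both origins, made with a Smart-Seq kit and read paired-end. The authors aligned reads to mm10 with STAR, per the labels and methods, and deposited unnormalized counts for every gene and cell. The counting tool, its handling of strand and the gene annotation are not given in the sources used here. In 8 cells, 9 deposited values in 4 genes were not whole and were handled like estimated counts and rounded; how the authors made them is not stated. All columns were matched to cells by label, and no 2 cells had the same values. The members of the gene group and all gene lists were chosen with earlier results of these data known.

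Cells with at most 5% of reads on mitochondrial genes were kept. Groups came from the labels (E or M), and plate was taken from the cell titles as a technical batch. Reads were summed by origin, in all cells and by plate, and divided by all reads to give CPM. The log2 ratio of moLCs over eLCs has a 95% binomial interval, with an origin at 0 set to 3 reads over the group. No test was made between origins, as the labels name no animal. Named genes were all 10 genes, the 3 genes most correlated with each, and listed genes past the 1.5-fold rule. Some genes that this rule names are not reported here. Other genes named from the lists were chosen after their values were seen. Cells were sorted singly, and doublets were not searched for. The moLC with the highest monocyte or macrophage sum had 7212 genes with a read, against a median of 4026 in moLCs. Whether it was a doublet was not tested. The gate used CD11c, CD11b, CD24, MHCII and CD326, and it excluded cells with markers of other lineages, CD3, NK1.1, Ly6G and SiglecF among them, so the shares of cells with reads of such genes are set by it.

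The sums, ratios and size rule were tested on simulated data with planted differences. Python 3.11.15 was used with numpy 2.4.6, pandas 2.3.3, scipy 1.17.1 and matplotlib 3.10.9, and TMM factors came from edgeR 4.0.16 in R 4.3.3. Promoter sequences are from RefSeq (GRCm38.p6). The alternatives were each plate alone, other filters on cells and on genes, thinning, the mean of the cells' CPM, TMM factors, library totals that leave out the 50 most counted genes, Pearson's correlation, and each cell left out in turn. After the data were seen, leaving out the highest cells and the 2 moLCs that stood apart was added.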

Additional observations from a re-analysis of the deposited data

How the results depend on the processing

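The count of genes past the 2-fold rule was 0 under every alternative run for it. At 1.5-fold it was 0, but 1 (Ctsd) after thinning, with equal weight for each cell, with TMM factors and with library totals that leave out the 50 most counted genes, and 0 to 1 with each cell left out in turn. The count in 1 direction was 5, and 3 with totals without those 50 genes (4 to 6 with each cell left out). The median log2 ratio of the genes with enough cells was -0.03. It was -0.13 in plate 1 alone, 0.012 in plate 2 alone, -0.047 at a mitochondrial threshold of 2.5%, -0.0096 after thinning, 0.062 with TMM factors, 0.035 with totals without the 50 genes, and -0.12 to 0.0061 with each cell left out, so its sign depends on the setting. The median correlation of 0.05 lay between 0.04 and 0.07 under all its alternatives. Apart from single plates, the sign of the ratio differed from that in all cells in 3 of 11 settings for Ctsz, 4 of 11 for Ctsh and 7 of 11 for Lgmn, and in 0 for the other 7 genes. The causes were not tested. No paired analysis was possible because no animal or pairing is named and no result comes from a test. At 1 sample per origin, depth is not the limit for the genes read in every cell; differences between mice could not be measured.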

Other observations

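The 3 moLCs left out for mitochondrial reads, all on plate 2, still had reads of the antigen processing genes. They held 233438 to 920430 reads, of which 9.97% to 29.3% were mitochondrial, and had a read of 6 or 7 of the 10 genes, with summed levels of 8897 to 14431 CPM.

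The moLC with the lowest LC marker sum, on plate 1, is described here by its levels of these genes. Its Ccl22 was at 43178 CPM and its Ccr7 at 9601 CPM, genes of migratory dendritic cells. The listed class II genes summed to 9157 CPM. Cd74 and H2-Aa are both class II genes and LC markers here, so this low sum follows in part from how the cell was picked. In that cell Cst3 was at 19259 CPM, Ctsz at 4654 CPM, Ctss at 3295 CPM and Ifi30 at 1706 CPM, each above its median in moLCs. Ctsb was at 242 CPM, below its median, and Ctsc had no read, as in 38 moLCs. Parts of this profile were found in the moLC with the highest summed level, also on plate 1. There Ccl22 was at 7483 CPM and Ccr7 at 1765 CPM. Its Cst3, Ctsz, Ctss and Ifi30 were above their medians and Ctsc had no read, but its Ctsb was at 2645 CPM. That cell was picked by its summed level of these genes, so their high levels follow in part from the choice. In other traits it was unlike the moLC with the lowest LC marker sum. Its LC marker sum was 200962 CPM against 11088 CPM, and its class II sum was 273777 CPM against 9157 CPM. Its Cd207 was at 6390 CPM, against no read.

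The gene with the lowest rho with Cst3 across cells was Sqstm1 (-0.47), which encodes an autophagy receptor that lysosomes degrade, at 8814 CPM in moLCs and 7831 CPM in eLCs.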
